A study of Mus musculus with 24 samples.

Results

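Isolated Foxa binding sites of adult mouse hepatocytes were examined for whether they were also bound in induced hepatocyte-like (iHep) cells. The sites came from 3 hepatocyte peak lists made by chromatin immunoprecipitation and sequencing (ChIP-seq), 1 each for a Foxa1, a Foxa2 and a Foxa3 antibody. Peaks were dropped when they lay in 1 of 4 dense blocks (mm9 chr9:3000010-3038304, chr10:7229710-7237012, chr11:3041272-3100001 and chr17:39980018-39985706). Peaks in chains of at least 4, with gaps of up to 10 kb within a list, were dropped too. The remaining peaks were merged where they shared at least 1 bp, which gave 656 isolated regions. Merging all hepatocyte peaks gave 1359 regions, and merging all 14 lists of the series gave 18022. The dropped hepatocyte peaks merged into 705 regions, called dense regions here. Members were thus chosen by where the hepatocyte peaks lie and how densely they lie, which is described without a test. The rule itself used no peaks of iHep cells, but it was set with earlier results of these data known.

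The iHep cells came from C57BL/6 mouse embryonic fibroblasts of embryonic day 13.5. All of them had been infected with Hnf4alpha and with 1 Foxa factor, which was Foxa3 in line 4a3, Foxa1 in line 4a1 and Foxa2 in line 4a2. Each line was profiled with the antibody against its own Foxa factor in 3 libraries, 2 of which carry EGS in their title and 1 of which does not (non-EGS). The labels do not spell out EGS. A Flag antibody, against an epitope tag, was used in 1 library each of lines 4a3 and 4a2, and the tagged protein is not named. Hepatocytes were isolated from livers of C57BL/6 mice aged 10 weeks, and the 3 libraries share 1 preparation number and 1 run code. Each antibody was thus used once in hepatocytes, without replication. Line, introduced factor and antibody change together in iHep cells and cannot be told apart. No run code given is shared between hepatocyte and iHep libraries, and the non-EGS Foxa3 library of line 4a3 carries none. Cell type and run thus cannot be told apart either.

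The Foxa proteins belong to the forkhead family and bind DNA through closely related winged-helix domains. They are known as pioneer factors, because they can bind their sites in compacted chromatin and help other factors reach them. In liver they act beside Hnf4alpha, a nuclear receptor that maintains the hepatocyte programme, and forced expression of Hnf4alpha with any of the Foxa factors is known to convert mouse fibroblasts into iHep cells.

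The lists bound what could be found. The Foxa lists of line 4a3 held 1246, 46 and 4317 peaks (EGS replicates 1 and 3, non-EGS replicate 2). Those of line 4a1 held 940, 542 and 3431, and those of line 4a2 held 957, 1040 and 11408 (EGS replicates 1 and 2, non-EGS replicate 2). The list of 46 peaks stands apart by its length. The Flag list of line 4a3 stands apart by its scores, which begin at 50 where other lists begin just above 5. EGS replicate 2 of line 4a1 stands apart in the dense regions, of which it overlapped 10.9%, against 0.851% and 0.284% for the other libraries of its line. How deeply the libraries were sequenced is unknown, as peak lists carry no read counts.

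Most isolated regions belonged to a single antibody. The Foxa3 list gave 431 isolated peaks of 1091, the Foxa2 list 171 of 244 and the Foxa1 list 75 of 166. After merging, 415 regions held a Foxa3 peak only, 157 a Foxa2 peak only and 67 a Foxa1 peak only. The other 17 regions, 2.59% of all, held peaks of several antibodies. Among these, 9 combined Foxa2 and Foxa3, 3 combined Foxa1 and Foxa3, 1 combined Foxa1 and Foxa2, and 4 held all 3. Regions were narrow, with a median width of 119 bp (99 to 990 bp). They lay on all autosomes, with most on chromosomes 11 (61 regions) and 1 (54 regions), and on chromosomes X (28) and Y (1). In 2 cases an isolated region overlapped a dense region of another antibody's list.

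Isolated peaks ranked differently within the 3 hepatocyte lists. Each peak carries a score given by the authors, whose scale is not stated, so it serves to rank peaks within a list. The median score of isolated peaks was 8.83 in the Foxa1 list, where the dropped peaks had a median of 19.7. In the Foxa2 list the medians were 10.9 for isolated and 7.01 for dropped peaks. In the Foxa3 list both medians were 9.27. Isolated peaks held the top 3 ranks of the Foxa1 list, but 5 of 75 in all were in its top quartile, while 59 of 171 isolated Foxa2 peaks and 97 of 431 isolated Foxa3 peaks were in the top quartile of their lists.

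About 1 isolated region in 3 was occupied in iHep cells. A region counted as occupied where a peak of the iHep list overlapped it by at least 1 bp. Of the 656 regions, 228 (34.8%, exact 95% Clopper-Pearson interval 31.1 to 38.5) were occupied in at least 1 of the 9 iHep Foxa libraries, beside 34.2% of all 1359 hepatocyte regions. In line 4a3, 151 regions were occupied (23.0%, 19.8 to 26.4), beside 22.8% of all hepatocyte regions. In line 4a1 it was 70 regions (10.7%, 8.41 to 13.3), beside 11.2% of all. In line 4a2 it was 100 regions (15.2%, 12.6 to 18.2), beside 8.31% of all. The shares in line 4a3, in line 4a1 and in any line were thus close to those of all hepatocyte regions, and the share in line 4a2 was higher. In line 4a1 this rested on EGS replicate 2, without which 9.30% of isolated and 4.93% of all hepatocyte regions were occupied. Of the 100 regions of line 4a2, 72 held a Foxa2 peak only, and 0 Foxa2 peaks had been dropped for lying in chains. The intervals cover counting error over regions only. Sites were rarely common to many libraries. A total of 101 regions were occupied in 1 library and 127 in at least 2, of which 25 were occupied in 5 or more, and no region was occupied in all 9.

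In lines 4a3 and 4a2 the shares depended on the longest library. Line 4a3 occupied 12.5% of the regions without its non-EGS library, and line 4a2 occupied 8.69% without its own. In line 4a1 leaving out a single library gave 7.77% to 9.30%, lowest without EGS replicate 1. In line 4a3, 9 regions were occupied in all 3 libraries, 60 in 2 and 82 in 1. In line 4a1 these counts were 9, 22 and 39, and in line 4a2 they were 22, 25 and 53.

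**Figure D1:**
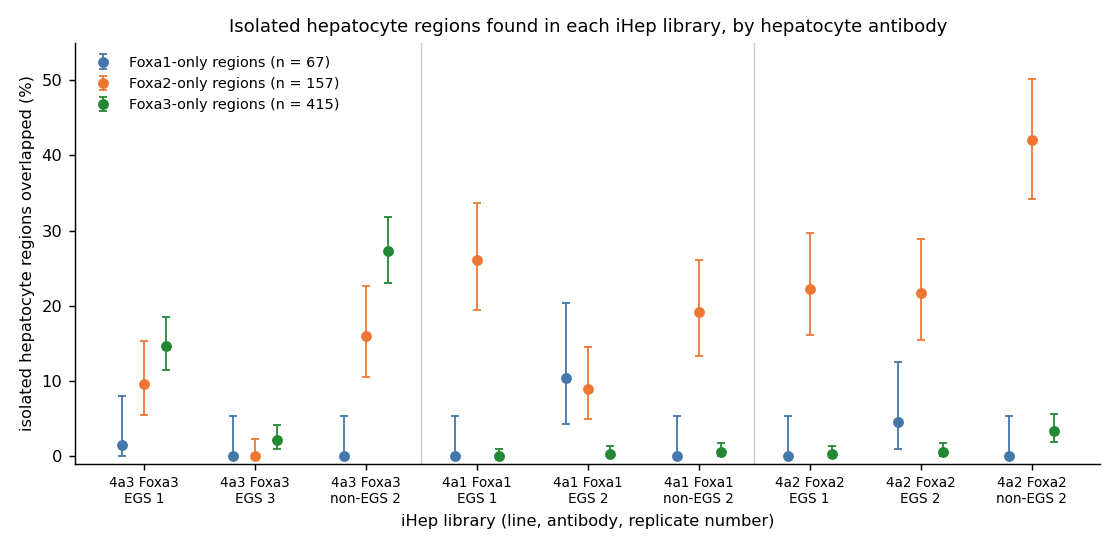
Share of isolated hepatocyte regions overlapped by each of the 9 iHep Foxa libraries (vertical axis, percent), split by the hepatocyte antibody that gave the region. Points are shares and bars are exact 95% Clopper-Pearson intervals over regions; in line 4a3 the Foxa3-only share lies above the Foxa2-only share in all 3 libraries, and in lines 4a1 and 4a2 it lies below it in all 6.

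Among regions of a single antibody, Foxa2-only regions were shared most widely. Of the 157 Foxa2-only regions, 78 (49.7%, 41.6 to 57.8) were occupied in at least 1 iHep Foxa library. Line 4a3 occupied 28 (17.8%, 12.2 to 24.7), line 4a1 occupied 50 (31.8%, 24.6 to 39.7) and line 4a2 occupied 72 (45.9%, 37.9 to 54.0). By library, line 4a3 occupied 15, 0 and 25 of them (EGS replicates 1 and 3, non-EGS). Line 4a1 occupied 41, 14 and 30, and line 4a2 occupied 35, 34 and 66 (EGS replicates 1 and 2, non-EGS). All 3 lines shared 24 of these regions, lines 4a1 and 4a2 shared a further 21, and 24 were found in line 4a2 alone. Line 4a3 had 1 region to itself and line 4a1 had 5. With EGS libraries alone, line 4a3 occupied 15 of the 157 regions, line 4a1 occupied 41 and line 4a2 occupied 43. Of the 25 isolated regions occupied in 5 or more libraries, 24 were Foxa2-only and 1 held Foxa2 and Foxa3 peaks.

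Foxa3-only regions were found in line 4a3 and hardly elsewhere. Of the 415 Foxa3-only regions, 130 (31.3%, 26.9 to 36.0) were occupied in any line. Line 4a3 occupied 117 of them (28.2%, 23.9 to 32.8), line 4a1 occupied 3 (0.723%, 0.149 to 2.1) and line 4a2 occupied 16 (3.86%, 2.22 to 6.19). By library, line 4a3 occupied 61, 9 and 113 (EGS replicates 1 and 3, non-EGS), while line 4a1 occupied 0, 1 and 2, and line 4a2 occupied 1, 2 and 14 (EGS replicates 1 and 2, non-EGS). Of the 117 regions in line 4a3, 113 were in that line alone and none was in all lines. Although the list of 46 peaks is the shortest of the 9, it occupied more of these regions than the 940, 542 and 3431 peaks of line 4a1. With EGS libraries alone, line 4a3 occupied 14.7% of them. This order of lines did not hold for the 17 regions of several antibodies, most of which held a Foxa3 peak. Line 4a3 occupied 5 of those, line 4a1 occupied 10 and line 4a2 occupied 9. The high share of Foxa3 sites in line 4a3 was not particular to isolated regions. Of the 459 hepatocyte Foxa3 peaks in chains of 6 or more, line 4a3 occupied 25.1%, line 4a1 0.436% and line 4a2 0.654%.

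The contrast between Foxa3-only and Foxa2-only regions differed between the lines. It was taken within each library, as the share of Foxa3-only regions occupied minus the share of Foxa2-only regions occupied. It was 5.14, 2.17 and 11.3 percentage points in line 4a3 (EGS replicates 1 and 3, non-EGS). In line 4a1 it was -26.1, -8.68 and -18.6, and in line 4a2 it was -22.1, -21.2 and -38.7 (EGS replicates 1 and 2, non-EGS). Within lines 4a1 and 4a2 the non-EGS library shares its number with EGS replicate 2, so the 9 libraries carry 7 distinct combinations of line and number. All libraries of line 4a3 were positive and all libraries of the other lines negative, without overlap. The mean was 6.21 ± 4.66 points in line 4a3 (SD, n = 3) and -22.6 ± 9.82 in lines 4a1 and 4a2 (SD, n = 6). The difference of 28.8 points gave p = 0.0119 in a two-sided exact permutation test over 84 assignments, the smallest they allow, and 0.0159 after Benjamini-Hochberg adjustment over 4 tests. With libraries of the same line and number averaged to 1 value, an alternative added after the data were seen, the difference was 29.1 points (exact permutation p = 0.0286, the smallest that 35 assignments allow; adjusted p = 0.0381). Permuting within libraries of the same replicate number gave an exact p of 0.0667, adjusted 0.0889, the smallest that the replicate block allows. Run code 170 holds 1 library of each kind, with 2.17 points in line 4a3 and -8.68 in line 4a1, and no other run code holds both. That hepatocyte Foxa3 peaks recur mainly in line 4a3 was known from the full lists, so the same direction here is not independent of it.

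**Figure D2:**
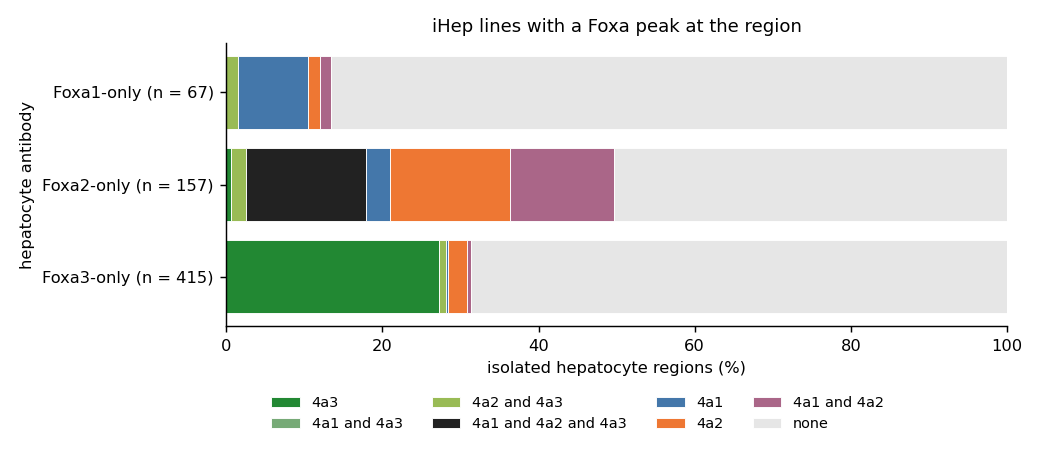
Combinations of iHep lines with a Foxa peak at each isolated region (horizontal axis, percent of regions), for Foxa1-only, Foxa2-only and Foxa3-only regions. Colours mark the lines with a peak in at least 1 library; among Foxa3-only regions the largest occupied part is line 4a3 alone (113 of 415), and among Foxa2-only regions it is spread over all lines (24 of 157), line 4a2 alone (24) and lines 4a1 and 4a2 (21).

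Foxa1-only regions were the least often occupied. Of 67, 9 (13.4%, 6.33 to 24.0) held an iHep Foxa peak. Line 4a3 occupied 1 of them, line 4a1 occupied 7 (10.4%, 4.30 to 20.3) and line 4a2 occupied 3. All 7 in line 4a1 came from EGS replicate 2, the library of that line that also overlapped most dense regions. Without it the count was 0 of 67, although the other lists of line 4a1 held 940 and 3431 peaks. The part of that library in the result was not tested. The 3 non-EGS libraries occupied 0 of the 67 Foxa1-only regions (0 to 5.36%).

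Regions with peaks of several hepatocyte antibodies were occupied in EGS libraries and in no non-EGS library. Of these 17 regions, 11 (64.7%, 38.3 to 85.8) were occupied in at least 1 of the 6 EGS libraries, against 0 (0 to 19.5%) in the 3 non-EGS libraries. EGS replicate 1 of line 4a3 occupied 5 and EGS replicate 3 occupied 0. In line 4a1 the EGS replicates 1 and 2 occupied 9 and 6, and in line 4a2 they occupied 5 and 9. The longest list, non-EGS of line 4a2, held 11408 peaks and occupied none of them. No non-EGS peak lay within 1 kb of any of the 17, and 2 of the 17 had one within 10 kb. For Foxa2-only regions, 37 of the 43 occupied by EGS libraries of line 4a2 were also occupied by its non-EGS library (86.0% of the EGS count and 56.1% of the non-EGS count of 66). For Foxa3-only regions in line 4a3, 57 of 61 EGS regions were also in the non-EGS list (93.4%, and 50.4% of its 113). The overlap was smaller elsewhere: 21 of 41 Foxa2-only EGS regions of line 4a1 (51.2%) were in its non-EGS list, and neither of the 2 Foxa3-only EGS regions of line 4a2 was. The pattern at the 17 regions was noticed in the data and was not tested. Whether peaks were removed from the non-EGS lists before deposit is not known, and this bears on every count of 0 in them. The hepatocyte libraries all carry EGS. The non-EGS library of line 4a3 carries no run code, and no run code given holds EGS and non-EGS iHep libraries together. The effect of EGS therefore cannot be told apart from that of the run.

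Occupied regions ranked higher in the hepatocyte lists. Each region was given the highest score percentile of its hepatocyte peaks within their list. Regions occupied by a library averaged the 67.9 ± 5.10 percentile and regions not occupied by it averaged 49.0 ± 0.813 (SD, n = 9 libraries). The difference was positive in 9 of 9 libraries, between 11.7 and 26.3 points, with a mean of 18.9 (two-sided exact sign-flip permutation p = 0.00391, the lowest of 512 assignments; adjusted p = 0.00781). The same regions serve all libraries, so this p speaks of the libraries only. With 1 value per line and number the mean was 19.6 points and positive in 7 of 7 (exact permutation p = 0.0156, adjusted 0.0313). The median percentile of isolated peaks was 25 in the Foxa1 list, 60.9 in the Foxa2 list and 50.55 in the Foxa3 list. Foxa1-only regions were rarely occupied and Foxa2-only regions more often, so the pooled difference can also hold differences between classes. The 3 classes were therefore also taken apart, an alternative added after the data were seen. Within Foxa2-only regions the difference was 10.2 points and positive in 8 of the 8 libraries with such a region (adjusted exact p = 0.0156), and in 6 of 6 with 1 value per line and number (adjusted exact p = 0.0417). Within Foxa3-only regions it was 1.99 points (adjusted exact p = 0.805, 8 libraries). There the 3 libraries of line 4a3 gave 16.2, 27.4 and 13.8 points over 61, 9 and 113 regions, and the 5 libraries of the other lines gave -40.3 to 10.1 over 1 to 14 regions. Foxa1-only regions gave 25.3 points over 7 regions in EGS replicate 2 of line 4a1. They gave 16.3 over 3 regions in EGS replicate 2 of line 4a2 and 74.6 over 1 region in EGS replicate 1 of line 4a3.

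In the hepatocyte list of each antibody the peaks of the top quartile were occupied most often. The isolated peaks of each list were divided into quartiles by score. In line 4a3, 47.2% (37.5 to 57.1) of the top quartile of 108 Foxa3 peaks were occupied, then 25%, 23.1% and 16.8% (10.3 to 25.3) in the lower quartiles. In line 4a1, 9 of 19 Foxa1 peaks of the top quartile were occupied, then 1, 0 and 1 in the lower quartiles. Without EGS replicate 2 of line 4a1 these counts were 3, 0, 0 and 0. In line 4a2, 55.8% (39.9 to 70.9) of the top quartile of 43 Foxa2 peaks were occupied, then 48.8%, 44.2% and 38.1% (23.6 to 54.4). Isolated Foxa2 peaks of the bottom quartile were thus still occupied in line 4a2 at 16 of 42. The intervals cover counting error over peaks only. Of the isolated Foxa3 peaks, 114 lay in runs of 2 and 75 in runs of 3, with gaps of up to 10 kb. Such neighbours can share an iHep peak and are not independent. Differences between quartiles were not tested.

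**Figure D3:**
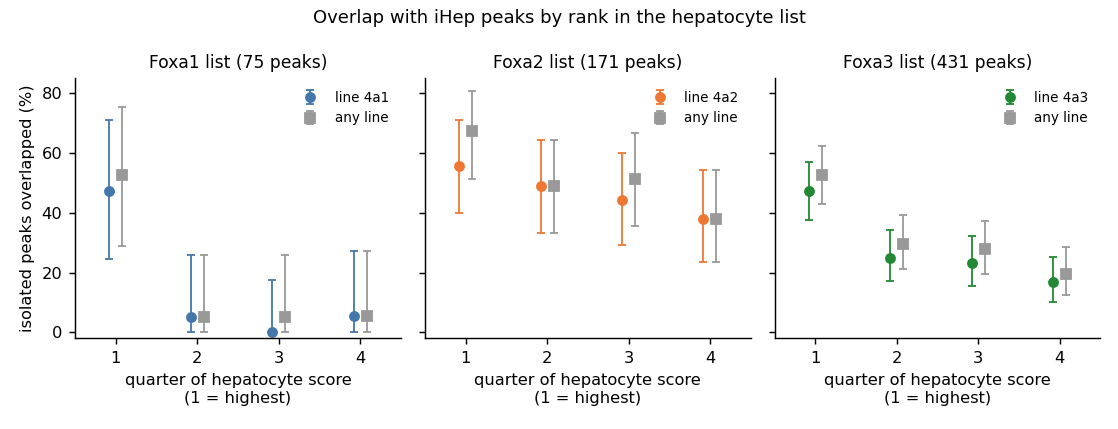
Share of isolated hepatocyte peaks overlapped by iHep peaks (vertical axis, percent) against the quartile of the hepatocyte score (1 is the highest), for the Foxa1, Foxa2 and Foxa3 lists. Circles show the line made with the same factor, squares show any line, and bars are exact 95% Clopper-Pearson intervals; the Foxa3 share in line 4a3 is 47.2% in the top quartile and 16.8% in the bottom quartile.

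Seen from the iHep side, peaks at isolated hepatocyte regions ranked above the other peaks of their list. Their mean score percentile was 65.2 ± 3.93, against 49.1 ± 0.787 for the other peaks (SD, n = 9 libraries). The difference was positive in 9 of 9 libraries, with a mean of 16.1 points (two-sided exact sign-flip permutation p = 0.00391, again the lowest possible; adjusted p = 0.00781). With 1 value per line and number it was 16.1 points (exact permutation p = 0.0156, adjusted 0.0313, n = 7). It was 19.8, 13.8 and 18.5 points in line 4a3 (EGS replicates 1 and 3, non-EGS). In line 4a1 it was 14.3, 12.03 and 11.6 points, and in line 4a2 it was 13.9, 23.2 and 17.4 points (EGS replicates 1 and 2, non-EGS). Between 43.9% and 52.5% of these peaks were in the top quartile of their list. The rest were spread over lower ranks, and between 2.08% and 22.2% were in the bottom quartile.

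Such peaks were a small part of each iHep list. They made up 6.42%, 19.6% and 2.97% of the lists of line 4a3 (EGS replicates 1 and 3, non-EGS). The 19.6% is 9 of 46 peaks (9.36 to 33.9). They made up 5.32%, 5.17% and 0.933% in line 4a1, and 4.28%, 4.62% and 0.692% in line 4a2. In each line the non-EGS list, which was the longest, had the lowest share.

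**Figure D4:**
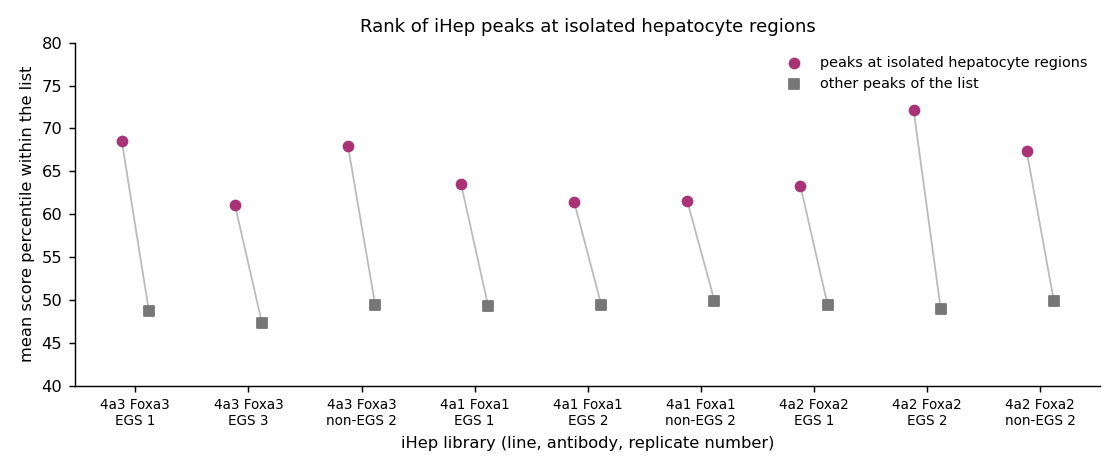
Mean within-list score percentile (vertical axis) of iHep peaks at isolated hepatocyte regions (circles) and of the other peaks of the same list (squares), for the 9 iHep Foxa libraries. Lines join the 2 values of a library; the circle lies above the square in all 9 libraries.

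Isolated and dense hepatocyte regions were occupied at different rates in some lines. Line 4a3 occupied 12.5%, 1.37% and 21.0% of isolated regions, against 12.1%, 1.42% and 20.4% of dense regions (EGS replicates 1 and 3, non-EGS). Line 4a2 occupied 6.25%, 7.32% and 12.2% of isolated regions, against 0.709%, 1.13% and 0.993% of dense regions (EGS replicates 1 and 2, non-EGS). In line 4a1 the isolated shares were 7.62%, 4.27% and 4.88%, against 0.851%, 10.9% and 0.284% of dense regions. The mean of the differences was 7.64 ± 3.10 points in line 4a2 and 0.336 ± 0.342 points in line 4a3 (SD, n = 3 each). Over all 9 libraries it was 3.18 ± 5.18 points (SD) and positive in 7, which did not pass the test (exact sign-flip permutation p = 0.117, adjusted 0.117). Without EGS replicate 2 of line 4a1 it was 4.41 points and passed (adjusted exact p = 0.0179). The 2 kinds of region differ in antibody. Chains held 554 Foxa3, 4 Foxa1 and 0 Foxa2 peaks, and blocks held 106, 87 and 73 in that order. Of the 100 isolated regions occupied in line 4a2, 72 were Foxa2-only. That line occupied 3.86% of isolated Foxa3-only regions, against 1.99% of dense regions. The part of antibody in this contrast was not tested. Whether the lines differ in this contrast was not tested either.

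The limit of 4 peaks in a chain was set against occupancy in the Foxa3 list, where most chains lie. In line 4a3, 25.6% (20.2 to 31.6) of the 242 hepatocyte Foxa3 peaks that stood alone were occupied, 28.1% (20.1 to 37.3) of the 114 in runs of 2 and 36.0% (25.2 to 47.9) of the 75 in runs of 3. Just outside the limit it was 46.7% (33.7 to 60.004) of the 60 peaks in runs of 4, then 14 of the 35 in runs of 5 (interval 23.9% to 57.9%) and 25.1% (21.2 to 29.3) of the 459 in longer runs. The largest gap within the limit of 10 kb was 9931 bp in the Foxa3 list, and the smallest beyond it was 10344 bp. Peaks of a run can share an iHep peak, so the intervals do not measure whether runs of 3 and of 4 differ. In line 4a2 the share was 7.44% (4.47 to 11.5) of single Foxa3 peaks and 0.654% (0.135 to 1.90) of those in runs of 6 or more. In line 4a1, 12 of the 242 single Foxa3 peaks, 0 of the 75 in runs of 3 and 4 of the 60 in runs of 4 were occupied. The Foxa1 list had few runs, and line 4a1 occupied 9 of its 68 single peaks, 0 of its 3 peaks in runs of 3 and all 4 of its peaks in a run of 4.

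**Figure D5:**
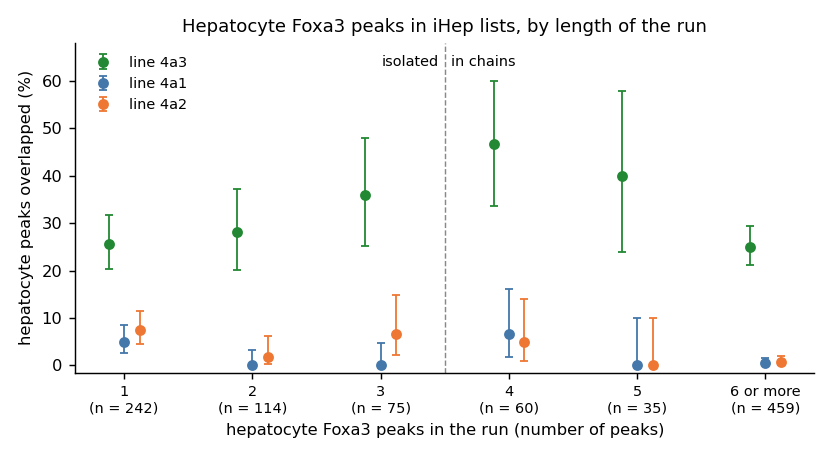
Share of hepatocyte Foxa3 peaks overlapped by peaks of each iHep line (vertical axis, percent) against the number of peaks in their run, with gaps of up to 10 kb. Bars are exact 95% Clopper-Pearson intervals and the dashed line marks the limit between isolated and chain peaks; line 4a3 lies between 25.1% and 46.7% at every length, while lines 4a1 and 4a2 stay below 8%.

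At occupied regions of a single antibody the centres of the overlapping peaks mostly lay within about a peak width. The median distance between the centre of the hepatocyte peak and the nearest overlapping iHep peak was 58 bp, 22 bp and 73.5 bp in line 4a3 (EGS replicates 1 and 3, non-EGS). It was 47 bp, 29.5 bp and 120 bp in line 4a1, and 27.3 bp, 74.5 bp and 114 bp in line 4a2 (EGS replicates 1 and 2, non-EGS). The distance is bounded by the widths of the peaks, since they had to overlap, and non-EGS peaks were wider (median 180 to 458 bp, against 135.5 to 149 bp for EGS).

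Regions without overlap differed in how near the next iHep peak lay. Of the 285 Foxa3-only regions with no iHep Foxa peak, 53 (18.6%) had one within 1 kb and 103 (36.1%) within 10 kb. Of the 79 such Foxa2-only regions, 6 (7.59%) had one within 1 kb and 13 (16.5%) within 10 kb. Of the 58 such Foxa1-only regions, 1 (1.72%) had one within 1 kb and 6 (10.3%) within 10 kb. The numbers of iHep peaks differ between lines, and these counts were not set against a background.

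The most widely shared isolated region was chr10:86308088-86308558 (mm9). It was the top peak of the hepatocyte Foxa2 list, with a score of 26.9, and was absent from the hepatocyte Foxa1 and Foxa3 lists. It held a peak in 8 of 9 lists of iHep cells with a Foxa antibody, and in both with Flag. In line 4a1 it ranked first in all 3 libraries, with scores of 155.5, 108 and 421 (EGS replicates 1 and 2, non-EGS). In line 4a2 it ranked first in both EGS libraries, with scores of 65.3 and 58.0, and 4 in the non-EGS library, with 365. In line 4a3 it ranked 39 in EGS replicate 1, with 22.9, and 1977 of 4317 in the non-EGS library, with 10.4. The region was thus at the head of the Foxa1 and Foxa2 lists and of middle rank in the longest Foxa3 list.

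A further 5 regions held a peak in 8 iHep Foxa lists, and all were Foxa2-only in hepatocytes. These were chr4:137423425-137423523, chr16:30603183-30603372, chr10:96149241-96149518, chr6:86437580-86437715 and chr9:53164876-53165045. All lacked a peak in the list of 46 only. Their hepatocyte ranks ran from 8 (chr9) to 163 (chr16) of 244, so a wide spread of iHep lists did not need a high hepatocyte rank. In the Foxa2 non-EGS list of 11408 peaks they ranked 20 (chr9), 67 (chr4), 594 (chr16), 705 (chr6) and 830 (chr10). In the Foxa3 non-EGS list of 4317 peaks they ranked 4052, 284, 1208, 396 and 1434 in the same order. Next came chr7:148662330-148662509 and chr16:90780035-90780147, each in 7 lists. Besides the list of 46, the first lacked a peak in the Foxa1 non-EGS list and the second in EGS replicate 2 of line 4a1.

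The 3 leading regions of line 4a3 alone were all on chromosome 11. They were chr11:69571875-69572162, chr11:101507296-101507429 and chr11:101519374-101519520, each occupied in all 3 Foxa3 libraries of iHep cells. The last was the highest isolated peak of the hepatocyte Foxa3 list, with a score of 28.1. In iHep cells it ranked 10, 11 and 12 in EGS replicate 1, EGS replicate 3 and the non-EGS library. The first 2 ranked 15, 4 and 8, and 2, 5 and 11, in those libraries, and 26 and 54 in the hepatocyte list. None of the 3 held a Flag peak. Each of the 3 had a further hepatocyte Foxa3 peak within 10 kb, so none stood alone. Between chr11:101507296-101507429 and chr11:101519374-101519520 the gap was beyond the 10 kb limit. Only that gap kept these regions and their neighbours from counting as a chain.

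Line 4a2 had 1 region to itself in all 3 libraries, chr2:68634023-68634175, at hepatocyte Foxa2 rank 6. It ranked 786 of 957, 173 of 1040 and 8889 of 11408 there (EGS replicates 1 and 2, non-EGS). The next 2 were in 2 libraries, chr1:167391839-167391939 (a Foxa3-only region) and chr7:20286204-20286356. In line 4a1 the leading regions of that line alone, chr12:3109854-3110126, chr9:35112799-35113177 and chr6:103599041-103599310, were Foxa1-only and were in EGS replicate 2 alone.

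Some of the strongest isolated hepatocyte peaks held no iHep peak. The next Foxa2 peaks by score after the top one, chr1:167390848-167391001 (26.2) and chr11:38494741-38494870 (24.99), were occupied in no iHep Foxa or Flag list. For the first of them an iHep peak lay 329 bp away, in EGS replicate 1 of line 4a3, while for the second the nearest was 718 kb away. The isolated Foxa3-only region chr1:167391839-167391939 of line 4a2 also lay within 1 kb of the first. The ninth, chr6:55133012-55133157 (19.8), was likewise unoccupied. In the Foxa3 list, chr12:112776449-112776596 (24.3), the next isolated peak by score, had the nearest iHep peak 328 bp away in the Foxa3 non-EGS list. The third, chr12:25780717-25780864 (21.8), was in that list at rank 825. The unoccupied chr1:90108595-90108738 (19.3) and chr6:51419079-51419206 (18.8) had their nearest iHep peaks 66.8 kb and 27 bp away. Lack of overlap at a threshold of 1 bp therefore included near misses of under 1 kb.

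The highest isolated Foxa1 peak, chr16:11144120-11144261 (38.8), was not found in line 4a1, where Foxa1 was introduced. It was occupied in EGS replicate 1 of line 4a3 (rank 49 of 1246) and EGS replicate 2 of line 4a2 (rank 7 of 1040), and in both Flag lists. The second, chr9:56071494-56071646 (32.1), also a hepatocyte Foxa3 peak, held no iHep Foxa peak but a Flag peak of line 4a3. The third, chr16:57391609-57391747 (28.2), also a hepatocyte Foxa2 peak, was in EGS replicate 1 of line 4a3 and EGS replicate 1 of line 4a1, and in both Flag lists. The highest-scored Foxa1 regions with neither a Foxa nor a Flag peak of iHep cells were chrX:103399213-103399342, chr4:151713631-151714620 and chrX:103382106-103382517, with scores of 19.2, 14.7 and 14.03. Their nearest iHep peaks lay 16.5 kb, 174 kb and 51 bp away in that order, so the last was a near miss.

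The 4 regions found with all 3 hepatocyte antibodies held middle to low ranks in the hepatocyte lists. They were chr11:3000365-3000545, chr12:68160325-68160622, chr17:13745643-13745939 and chrX:73844192-73844459. Their Foxa3 ranks were 1085, 1088, 880 and 516 of 1091, and their Foxa1 ranks were 165, 152, 87 and 96 of 166. The regions on chromosomes 11 and 12 held no iHep peak. The region on chromosome 17 was occupied in 4 EGS libraries of all 3 lines, at ranks 659 of 1246 in line 4a3, 940 of 940 and 507 of 542 in line 4a1 and 589 of 1040 in line 4a2, and the region on chromosome X was occupied in EGS replicate 2 of line 4a1 alone.

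The Flag library of line 4a3 reached 38 isolated regions (5.79%), beside 4.56% of all hepatocyte regions. That of line 4a2 reached 5 (0.762%), beside 0.515% of all. Of the 38, 19 were Foxa2-only, 6 were Foxa1-only, 6 were Foxa3-only and 7 held several antibodies. Foxa3 peaks of the same line covered 19 of them, Foxa1 peaks of line 4a1 covered 21 and Foxa2 peaks of line 4a2 covered 25. Of the 5 in line 4a2, 3 also held a Foxa2 peak of the same line. A total of 28 isolated regions held a peak of each of the 3 iHep lines. Of these, 24 were Foxa2-only and the other 4 held several antibodies.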

How the data were processed

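The 14 deposited files are peak lists, 1 per library, with a chromosome, start, end, name and score for each peak. The build was mm9, and MACS2 2.1.0, BWA 0.6.2 and bedtools 2.16.2 are named as tools, without role or threshold, per the submitters' processing notes. The deposited score of a peak has no stated scale and was used only as a rank within its list. The other 10 samples are inputs, and no file of theirs was used here. The reference tables at hand are of another build, so no gene and no sequence was assigned to a region.

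Coordinates were written 1-based. Score percentiles are mid-ranks within a list. Overlaps and tests ran in Python 3.11.15 with scipy 1.17.1, pandas 2.3.3 and numpy 2.4.6, after the code was tested on simulated lists. Replicates are libraries. The EGS and non-EGS libraries numbered 2 share their number within line 4a1 and within line 4a2 and may come from the same cells, and no label says that numbers are separate inductions, so p-values measure the spread between these libraries, which may be technical. The 4 permutation tests were adjusted together by Benjamini-Hochberg at 0.05. The regions named are those with all 3 hepatocyte antibodies, the 8 in most iHep lists, the top 3 of each hepatocyte list, the 3 leading regions of each line alone and the 3 highest regions of each hepatocyte list with no iHep Foxa or Flag peak. The members, rules and tests were chosen with earlier results of these data known. Alternatives were another overlap, shorter lists, other chain limits, EGS or non-EGS libraries alone and each library left out.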

Additional observations from a re-analysis of the deposited data

Results flagged for a closer look

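The contrast between Foxa3-only and Foxa2-only isolated regions differed between line 4a3 and lines 4a1 and 4a2 by 28.8 percentage points (exact permutation test, two-sided, p = 0.0119, adjusted 0.0159), positive in 3 of 3 libraries of line 4a3 and negative in 6 of 6 of the others. With the replicate block the adjusted exact p was 0.0889. The recurrence of Foxa3 peaks in line 4a3 was known from the full lists before this contrast was chosen, so the p is not independent evidence of it. Line, introduced factor and antibody go together here and cannot be told apart.

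The Flag lists, which enter none of the tests, held a peak at 11 of the 656 isolated regions without any iHep Foxa peak. Of these, 6 were Foxa3-only, 3 were Foxa1-only, 1 was Foxa2-only and 1 held Foxa1 and Foxa3 peaks. There is no control library for the Flag antibody among the lists used here. The 11 regions were not set against the same count over all hepatocyte regions, so their number cannot be called high or low.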

How the results depend on the processing

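The contrast of Foxa3-only and Foxa2-only regions kept its direction under every alternative run, and so did both rank differences. Read depth is unknown and limits every statement that a region lacked a peak. Leaving out the blocks as a separate step changed nothing, since the chains alone gave the same values.

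For the contrast, EGS libraries alone gave 23.2 points (adjusted exact p = 0.0889) and non-EGS libraries alone 39.95 points (adjusted exact p = 0.333), where 6 and 3 libraries cannot pass. The replicate block gave the same 28.8 points with an adjusted exact p of 0.0889. No label says whether equal numbers pair libraries across lines. In EGS libraries of lines 4a1 and 4a2 the differences between replicates 1 and 2 correlated at 0.0395 over the isolated regions. That single value cannot decide it, since these replicates differ in run code in line 4a1 and share it in line 4a2. For the percentile of iHep peaks, EGS alone gave 16.2 points (adjusted exact p = 0.0625) and non-EGS alone 15.8 (adjusted exact p = 0.333). For the percentile of occupied hepatocyte regions they gave 21.4 (adjusted exact p = 0.0625) and 13.9 points (adjusted exact p = 0.333), and Foxa3-only regions alone gave 1.99. The difference between isolated and dense regions was 5.82 points with the top-scoring 50% of isolated hepatocyte peaks and then passed (adjusted exact p = 0.0119). In that setting only isolated peaks were cut by score, while dense regions kept all their peaks. Isolated peaks of high score were occupied more often, so the sides were unlike and this pass does not speak of isolated against dense regions. The cause of the rise was not tested.

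The shares moved with the length of the lists. With the top-scoring 50% of each iHep list they were 27.3% in any line, 17.8% in line 4a3, 7.32% in line 4a1 and 12.2% in line 4a2. With the top 300 peaks they were 17.2%, 10.7%, 5.64% and 5.95% in that order. With EGS libraries only they were 20.7% in any line, 12.5% in line 4a3 and 8.69% in line 4a2, and with non-EGS libraries only 29.6% in any line, 4.88% in line 4a1 and 12.2% in line 4a2. With the top-scoring 50% of isolated hepatocyte peaks they were 43.5% in any line, 29.7% in line 4a3 and 13.8% in line 4a1. Leaving out 1 library gave 26.7% to 34.8% in any line and 12.5% to 23.0% in line 4a3. The ranges were 7.77% to 10.7% for line 4a1 and 8.69% to 15.2% for line 4a2. It gave 25.5 to 31.5 points for the contrast, 2.18 to 4.41 for isolated against dense regions, 15.2 to 16.6 for iHep peaks and 18.0 to 19.8 for hepatocyte regions.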

Other observations

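Occupancy varied between chromosomes. Of the isolated regions on chromosome 12, 14 of 24 held an iHep Foxa peak, while 4 of 28 did on chromosome X and 13 of 54 on chromosome 1, beside 34.8% over all regions. These chromosomes were picked after their values were seen, and no test was run.

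Of the 418 merged iHep regions with a peak in each of the 3 lines, 34 (8.13%, 5.70 to 11.2) overlapped an isolated hepatocyte region. This share was not set against that of other merged iHep regions, so it cannot be called high or low.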
